A study of Mus musculus with 6 samples.

Results

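The CC chemokines Ccl2, Ccl3, Ccl4, Ccl5, Ccl6, Ccl7, Ccl9 and Ccl12 were followed in BV2 cells, an immortalised mouse microglial line. They were taken by gene symbol, and all 8 were found among the 25032 genes with a read, out of 55359 genes counted. One group of 3 libraries came from cells overexpressing GFP and the other 3 from cells overexpressing TDP43-NLS, a TDP-43 altered in its nuclear localisation signal according to the design text. Apart from that transgene the labels give both groups the same line, medium and serum, and they name neither a promoter, a clone nor a time after delivery. They also do not say that the libraries came from separate cultures, so p-values measure only the spread between these libraries, which may be technical.

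CC chemokines are small secreted proteins with a pair of adjacent cysteines near the start of the mature protein. They bind G-protein-coupled receptors on leukocytes and draw those cells along a gradient. Microglia and macrophages transcribe many of them when Toll-like receptors or cytokine receptors activate NF-kB, and their mRNAs are usually short-lived. Ccl2, Ccl7 and Ccl12 are monocyte chemoattractants that act through Ccr2. Ccl3 and Ccl4 are macrophage inflammatory proteins and Ccl5 is RANTES, which attract monocytes and T cells. Ccl6 and Ccl9 are rodent chemokines with an extended amino terminus that act through Ccr1.

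The coding stretch around the paired cysteines is shown for 7 of the genes because it defines the family and places the members beside one another. It was read 5′ to 3′ on the coding strand from GENCODE M21 transcripts (build GRCm38), 36 bases each, with the 2 cysteine codons in capitals.
Ccl2, chr11:82036491-82036526, plus strand: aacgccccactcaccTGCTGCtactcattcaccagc
Ccl7, chr11:82046523-82046558, plus strand: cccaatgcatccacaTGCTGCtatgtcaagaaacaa
Ccl12, chr11:82102619-82102654, plus strand: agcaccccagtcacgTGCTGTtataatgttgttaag
Ccl5, chr11:83529227-83529262, minus strand: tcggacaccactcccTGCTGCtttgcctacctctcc
Ccl9, chr11:83575911-83575946, minus strand: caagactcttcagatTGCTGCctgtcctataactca
Ccl6, chr11:83589371-83589406, minus strand: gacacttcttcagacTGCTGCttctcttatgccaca
Ccl4, chr11:83663467-83663502, plus strand: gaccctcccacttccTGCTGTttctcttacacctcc

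Each of the 8 coding sequences held 1 such pair. Counted from the start codon, the first cysteine codon was codon 33 or 34 in the other genes but codon 50 in Ccl6 and codon 57 in Ccl9. Coding sequences were closest between Ccl6 and Ccl9 (70.6% of aligned bases identical) and between Ccl3 and Ccl4 (70.0%). Ccl2 shared 68.4% with Ccl7 and 69.3% with Ccl12, and the most distant pair was Ccl5 and Ccl7 (57.2%). The longest run of identical bases between any 2 members' transcripts was 25 bases, between Ccl6 and Ccl9. The sources used here do not say how reads matching several genes were counted.

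All members lie on chromosome 11, in a pair of runs 1422 kb apart. Positions of whole genes are those of the deposited annotation (build GRCm39). Ccl2 (ENSMUSG00000035385, 81926397 to 81928279) is followed 8.26 kb on by Ccl7 (ENSMUSG00000035373, 81936538 to 81938351) and, 54.3 kb further, by Ccl12 (ENSMUSG00000035352, 81992671 to 81994226), all on the plus strand. The second run begins with Ccl5 (ENSMUSG00000035042, 83416604 to 83421344), Ccl9 (ENSMUSG00000019122, 83463745 to 83469462) and Ccl6 (ENSMUSG00000018927, 83478708 to 83483913) on the minus strand. It ends with Ccl3 (ENSMUSG00000000982, 83538670 to 83540181, minus) and Ccl4 (ENSMUSG00000018930, 83553410 to 83555509, plus).

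The libraries held 15062131 to 18005592 counted reads. Tardbp, the mouse gene for TDP-43, was lower with TDP43-NLS than with GFP (377 ± 9.62 against 451 ± 24.0 CPM, SD, n = 3 each), and no row is a construct, so the directions below rest on the labels. Of 9 microglial and macrophage markers, 3 rose, 4 fell and 2 did not pass the test, which 57.5% of all tested genes passed. Adgre1 rose 2.86-fold, Aif1 2.85-fold and Itgam 2.46-fold, while the 4 that fell stood at 0.85 to 0.94 times their GFP level. The summed level of the 9 was 2542 to 2581 CPM in the GFP libraries and 2633 to 2675 CPM in the others. Cd68 was the largest part of that sum, at means of 887.5 CPM with GFP and 832.6 CPM with TDP43-NLS. Of 35 markers of T, NK and B cells, neutrophils, neurons, astrocytes, oligodendrocytes, endothelial cells and fibroblasts, 17 had no row under their names among genes with a read, including Cd3e, Cd3g, Trac, Cd8a, Ncr1, Gzma, Ms4a1, Ly6g, S100a9, Rbfox3, Snap25 and Mog. The other 18 never exceeded 30 reads in a library and summed to 4.85 to 5.67 CPM in the GFP libraries and 3.85 to 5.13 CPM in the TDP43-NLS libraries. Of the 3 of them that were tested, the endothelial marker Pecam1 rose (8 reads with GFP and 75 with TDP43-NLS in total, log2 fold change 3.17, edgeR adjusted p = 9.49e-06) and the T-cell marker Cd4 fell (46 and 8 reads, log2 fold change -2.47, edgeR adjusted p = 0.00132). The other endothelial markers were too low to test, Cdh5 with 18 and 13 reads and Cldn5 with 0 and 1. The T-cell marker Cd3d, also too low to test, had 6 and 0 reads. The part of these markers in the results was not tested. In such bulk RNA, more expressing cells and more RNA per cell cannot be told apart.

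In cells labelled TDP43-NLS, 7 of the 8 CC chemokines rose and 1 fell, and the 7 increases ran from 1.69-fold for Ccl5 to 48.1-fold for Ccl7. The single decrease was that of Ccl6, which was 0.837 times its GFP level. A call means an adjusted p under 0.05 in edgeR's quasi-likelihood test with Benjamini-Hochberg adjustment over the 13199 genes tested. The median log2 fold change of the members was 1.95, against 0.00 over all tested genes. Calls were common in this comparison: 57.5% of tested genes were called, 29.3% higher and 28.2% lower. In 63.2% of tested genes the groups did not overlap, as in all 8 members. Tested against a log2 fold change of 0.5, which 14.9% of genes passed, 6 members were still called, all of them higher, and Ccl5 and Ccl6 were not.

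**Figure D1:**
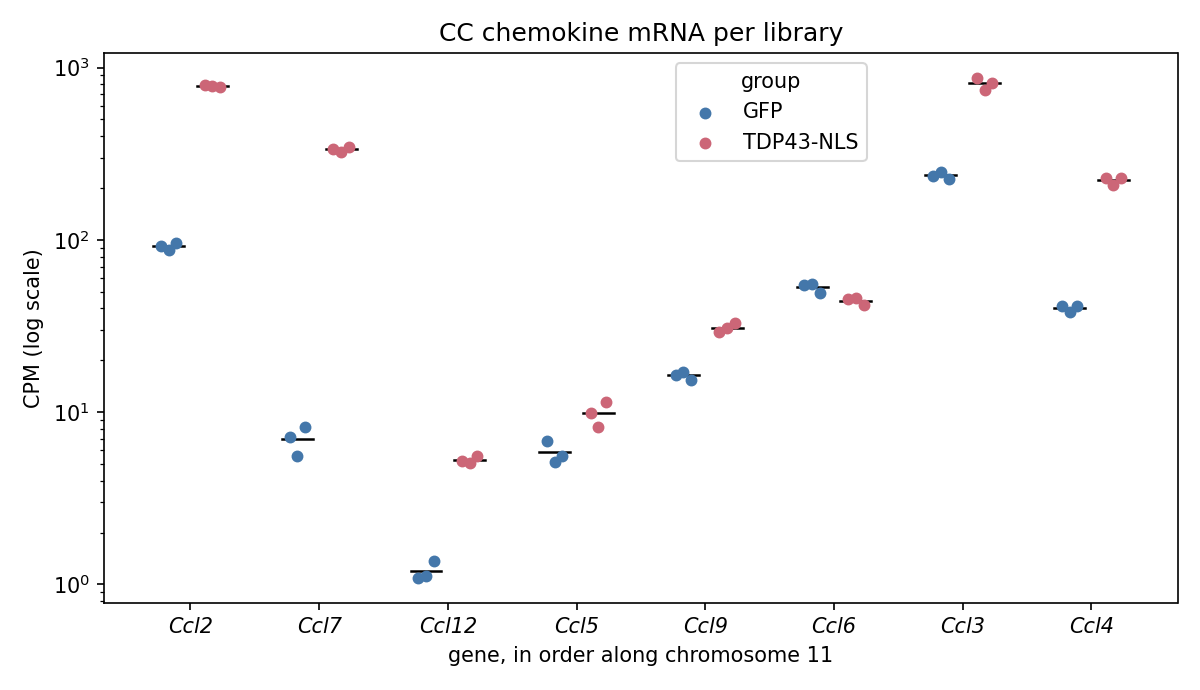
CPM (reads scaled by TMM to a common library size, log axis) of each CC chemokine in the 3 GFP libraries (blue) and 3 TDP43-NLS libraries (red), genes in order along chromosome 11, with black bars at the group means. The widest gap is that of Ccl7 (6.96 to 335 CPM), and Ccl6 alone has its red points below the blue ones.

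Among the monocyte chemoattractants, Ccl7 and Ccl2 had the largest log2 fold changes of the 8 members. Ccl7 was read 111, 94 and 143 times with GFP and 4987, 5750 and 6019 times with TDP43-NLS. Its mean level went from 6.96 ± 1.31 to 335 ± 11.8 CPM (SD over 3 libraries). The log2 fold change was 5.59 ± 0.08 (SE), with an edgeR adjusted p of 4.82e-14. The lowest TDP43-NLS library was thus far above the highest GFP library, and Ccl7 ranked 21 of 13199 tested genes by log2 fold change.

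Ccl2, also called MCP-1, was already well expressed in the GFP libraries. It was read 1430, 1472 and 1674 times there, and 11686, 13971 and 13401 times with TDP43-NLS. Mean levels were 91.6 ± 4.20 and 782 ± 8.72 CPM (SD over 3 libraries). This 8.54-fold rise is a log2 fold change of 3.09 ± 0.05 (SE; edgeR adjusted p = 4.82e-14). The TDP43-NLS libraries differed by little among themselves, with a coefficient of variation of 1.11%.

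Ccl12, the mouse MCP-5, was the scarcest member. Read counts were 17, 19 and 24 with GFP and 77, 90 and 97 with TDP43-NLS. That is 1.2 ± 0.150 CPM and 5.28 ± 0.275 CPM (SD over 3 libraries). The log2 fold change was 2.13 ± 0.16 (SE; edgeR adjusted p = 1.57e-07). The groups were well separated, but on few reads.

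Per length, the 3 monocyte chemoattractants did not rise in proportion. FPKM, the deposited values scaled for depth and gene length, allow levels of different genes to be set beside each other. Ccl7 stood at 0.110, 0.0907 and 0.121 of the Ccl2 FPKM with GFP and at 0.606, 0.585 and 0.638 with TDP43-NLS. Every TDP43-NLS ratio was above every GFP ratio. Ccl12 moved the other way relative to Ccl2, from 0.0276 ± 0.00261 to 0.0143 ± 0.000898 of its FPKM (SD, n = 3 each), again without overlap.

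Ccl3 and Ccl4 both rose, Ccl3 from the highest starting level of the members. Ccl3, or MIP-1 alpha, had the most reads of the 8 genes in every GFP library: 3668, 4180 and 3971, against 12903, 13234 and 14207 with TDP43-NLS. Its mean went from 237 ± 10.5 to 811 ± 63.6 CPM (SD over 3 libraries), 3.43-fold higher. The log2 fold change was 1.78 ± 0.06 (SE; edgeR adjusted p = 3.72e-11). The TDP43-NLS libraries were spread from 744 to 870 CPM, all above the GFP maximum of 247 CPM.

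Ccl4, or MIP-1 beta, lies 13.2 kb from Ccl3 and points the opposite way. Reads numbered 639, 645 and 723 with GFP and 3374, 3686 and 3985 with TDP43-NLS. Means of 40.2 ± 1.74 and 221 ± 12.4 CPM (SD over 3 libraries) put it 5.51-fold higher. No GFP library came near a TDP43-NLS one, and the log2 fold change was 2.46 ± 0.06 (SE; edgeR adjusted p = 1.2e-12). Relative to the FPKM of Ccl3, that of Ccl4 was 0.179 to 0.211 with GFP and 0.304 to 0.326 with TDP43-NLS, so the ratio of these neighbours did not overlap either.

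Ccl5, which attracts T cells and monocytes, changed less and varied more. It was read 106, 87 and 98 times with GFP and 147, 146 and 198 times with TDP43-NLS. Mean levels were 5.85 ± 0.870 and 9.84 ± 1.60 CPM (SD over 3 libraries), a log2 fold change of 0.75 ± 0.14 (SE; edgeR adjusted p = 0.000514). The groups were separated only narrowly, with the highest GFP library at 6.83 CPM and the lowest TDP43-NLS library at 8.21 CPM. The call ended when tested against a log2 fold change of 0.5 (adjusted p = 0.0872).

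Ccl9 and Ccl6, the most alike pair in coding sequence and neighbours 9.25 kb apart on the same strand, moved in opposite directions. Ccl9, or MIP-1 gamma, was read 256, 290 and 269 times with GFP and 433, 548 and 570 times with TDP43-NLS. It rose from 16.3 ± 0.921 to 30.9 ± 1.82 CPM (SD over 3 libraries), by 0.92 ± 0.07 on the log2 scale (SE; edgeR adjusted p = 1.72e-07). All 3 TDP43-NLS libraries, at 29.2 to 32.8 CPM, were above the GFP range of 15.3 to 17.2 CPM.

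Ccl6, also called C10, was read 852, 934 and 863 times with GFP and 677, 814 and 727 times with TDP43-NLS. It fell from 53.1 ± 3.39 to 44.4 ± 2.21 CPM (SD over 3 libraries), a log2 fold change of -0.26 ± 0.06 (SE; edgeR adjusted p = 0.00279). The 3 TDP43-NLS libraries reached at most 45.7 CPM and the GFP libraries at least 49.2 CPM. This small difference was not called against a log2 fold change of 0.5 (adjusted p = 1). The FPKM of Ccl9 relative to Ccl6 was 0.177 to 0.184 in the GFP libraries and 0.377 to 0.462 in the TDP43-NLS libraries, a ratio that did not overlap between the groups.

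The promoter windows of this pair are shown because the genes are close relatives whose mRNAs went opposite ways. They are the 250 bases before the RefSeq start (GRCm38.p6), 5′ to 3′ on the minus strand. Capitals mark every base that lies in a stretch of at least 10 bases found in both.
Ccl9, chr11:83578637-83578886, minus strand: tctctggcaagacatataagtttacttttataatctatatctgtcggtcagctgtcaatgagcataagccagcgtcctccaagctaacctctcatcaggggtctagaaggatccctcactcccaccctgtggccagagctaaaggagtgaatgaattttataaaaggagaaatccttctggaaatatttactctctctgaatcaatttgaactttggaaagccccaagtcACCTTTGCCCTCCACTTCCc
Ccl6, chr11:83593088-83593337, minus strand: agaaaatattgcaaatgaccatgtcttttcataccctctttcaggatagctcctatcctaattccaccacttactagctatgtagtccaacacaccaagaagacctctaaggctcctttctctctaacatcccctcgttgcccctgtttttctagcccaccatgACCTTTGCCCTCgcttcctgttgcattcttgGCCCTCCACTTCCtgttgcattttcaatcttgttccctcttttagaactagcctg

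The shared letters formed 1 run of 19 bases in Ccl9 and 2 runs, together 25 bases, in Ccl6. The run in Ccl9 joins 2 overlapping stretches that lie apart in Ccl6, so the longest stretch found in both was 13 bases. RefSeq windows were matched for 4 of the 8 members, Ccl3, Ccl6, Ccl9 and Ccl12. Each was searched on both strands for the NF-kB consensus, the AP-1 site TGANTCA and the TATA box TATAAA. Of 32851 windows of this length in the table, 7.25% hold the first, 6.75% the second and 12.4% the last. The Ccl9 window held the NF-kB consensus on the reverse strand, beginning 35 bases before the start (position -35), the AP-1 letters at -53 and the TATA letters at -224, -94 and -92, the last pair overlapping on opposite strands. The Ccl12 window held TATAAA at -31 and neither of the others. None of these letters were in the windows of Ccl3, which rose, and Ccl6, which fell. The bearing of such letters on the levels was not tested.

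Together the 8 genes made up 0.0457% ± 0.000872 of counted reads in the GFP libraries and 0.221% ± 0.00777 in the TDP43-NLS libraries (SD, n = 3 each). Their summed FPKM was 511, 515 and 498 with GFP and 2607, 2403 and 2547 with TDP43-NLS, a ratio of means of 4.96. The lowest TDP43-NLS sum was several times the highest GFP sum.

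The order of levels per length changed in 1 place among the abundant genes. In the GFP libraries the FPKM ran from Ccl3 (312.5) through Ccl2 (81.4), Ccl4 (61.6), Ccl6 (29.9), Ccl7 (8.78), Ccl5 (6.17) and Ccl9 (5.43) to Ccl12 (2.25). Library values of Ccl7 overlapped those of Ccl5, and those of Ccl5 overlapped Ccl9. In the TDP43-NLS libraries Ccl7 (413 FPKM) stood below Ccl3 (1044) and Ccl2 (677) and above Ccl4 (331) and Ccl6 (24.4). Ccl5 (10.1), Ccl9 (10.0) and Ccl12 (9.70) overlapped as neighbours at the low end.

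Ccl3 made up 61.5% ± 1.85 of the summed FPKM in the GFP libraries and 41.4% ± 1.49 in the TDP43-NLS libraries (SD, n = 3 each). The share of Ccl7 went from 1.73% ± 0.350 to 16.4% ± 0.478 and that of Ccl2 from 16.0% ± 0.976 to 26.9% ± 1.25. Ccl6, whose own FPKM went from 29.9 to 24.4, took 5.89% ± 0.283 and then 0.971% ± 0.0731. Ccl4 kept a similar share, at 12.1% ± 0.668 and 13.1% ± 0.293. These shares are descriptions and were given no test.

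**Figure D2:**
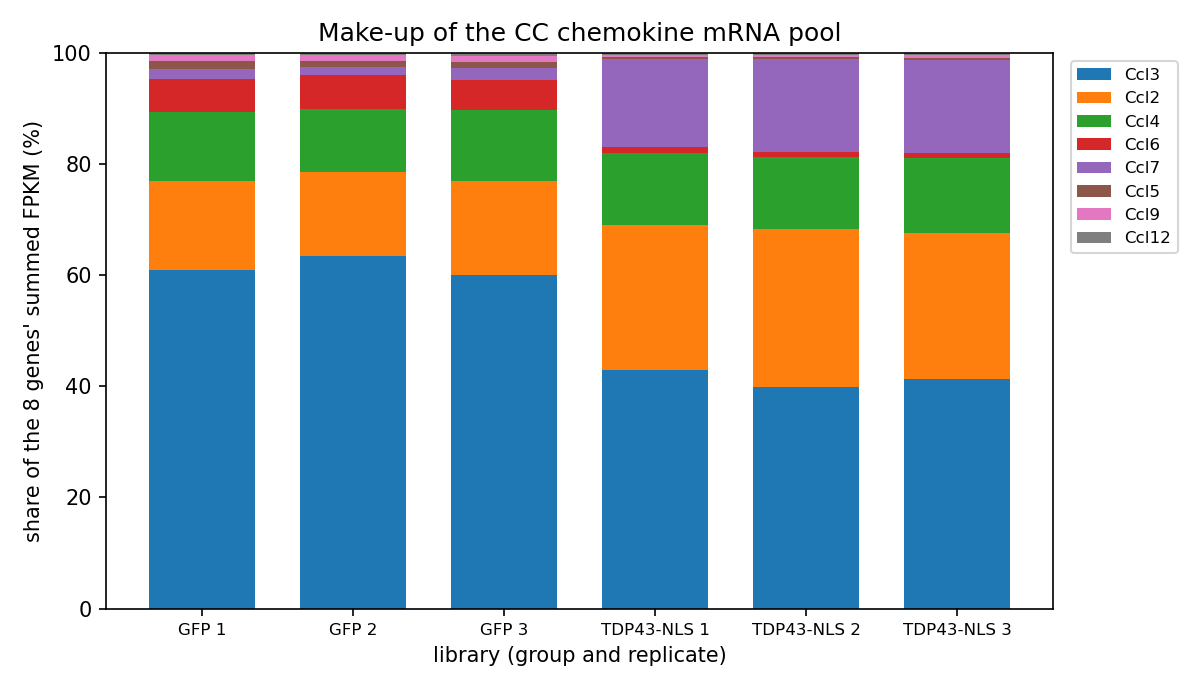
Share of each CC chemokine (%) in the summed FPKM of the 8 genes, as a stacked bar for each library. Ccl3 is the largest part in every library, and the Ccl7 part is thin in the GFP libraries (1.73% on average) and broad in the TDP43-NLS libraries (16.4%).

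Along the chromosome, the run from Ccl2 to Ccl12 had log2 fold changes of 2.13 to 5.59 and the run from Ccl5 to Ccl4 of -0.26 to 2.46. Between and around them, 53 other genes with a read lie in the window from 100 kb before Ccl2 to 100 kb after Ccl4, of which 25 were tested. Of these, 12 rose, 4 fell and 9 did not pass, with a median log2 fold change of 0.20. Over all tested genes 57.5% were called, and over the rest of chromosome 11 it was 58.2% of 1051 tested genes, with a median of 0.01. For the 779 of them with an average log2 CPM above 3 the median was also 0.01.

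Several of the tested genes of the window are Schlafens, a family of interferon-responsive genes of immune cells that lies between the chemokine runs. Slfn4 rose from 21.1 ± 1.82 to 250.1 ± 4.56 CPM (SD over 3 libraries), with a log2 fold change of 3.57 (edgeR adjusted p = 8.69e-14). On the log2 scale Slfn5 rose by 2.39, Slfn10-ps by 0.88 and Slfn2 by 0.70, while Slfn3 (log2 fold change 0.03, adjusted p = 0.710) was not called and Slfn8 fell by 0.46, the last pair being named after their values were seen. The Schlafens are closely related genes that may share reads, and their values are uncertain.

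The neighbours closest to the chemokines were mostly scarce. Upstream of Ccl2, the long non-coding RNA Gm11419 was read 1, 1 and 2 times with GFP and 14, 21 and 16 times with TDP43-NLS (log2 fold change 3.55, standard error 0.43, adjusted p = 1.11e-05 in edgeR). Gm31522, another long non-coding RNA and the next gene to Ccl2, had 7 and 27 reads in all, a ratio of 3.86 with a 95% exact interval of 1.64 to 10.5 that covers counting error only. Within the first run, Ccl11 had 1 read in the GFP libraries and 4 in the others, and Ccl8, beyond Ccl12, had 1 read in all. Heatr9, before Ccl5, had 2 and 12 reads (ratio 6.0, interval 1.34 to 55.2), and the pseudogene Gm11432, after Ccl4, had 3 reads in all.

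The long non-coding RNA E230016K23Rik spans Ccl6 on the opposite strand. It rose from 19.6 ± 0.178 to 34.5 ± 0.655 CPM (SD over 3 libraries), with a log2 fold change of 0.81 ± 0.06 (SE; edgeR adjusted p = 8.42e-08), against the fall of Ccl6. No strand-marking step is described for the library kit, so reads from bases that both genes use could not be told apart. In GENCODE M21 no exon of a member shares a base with an exon of another gene, on either strand.

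**Figure D3:**
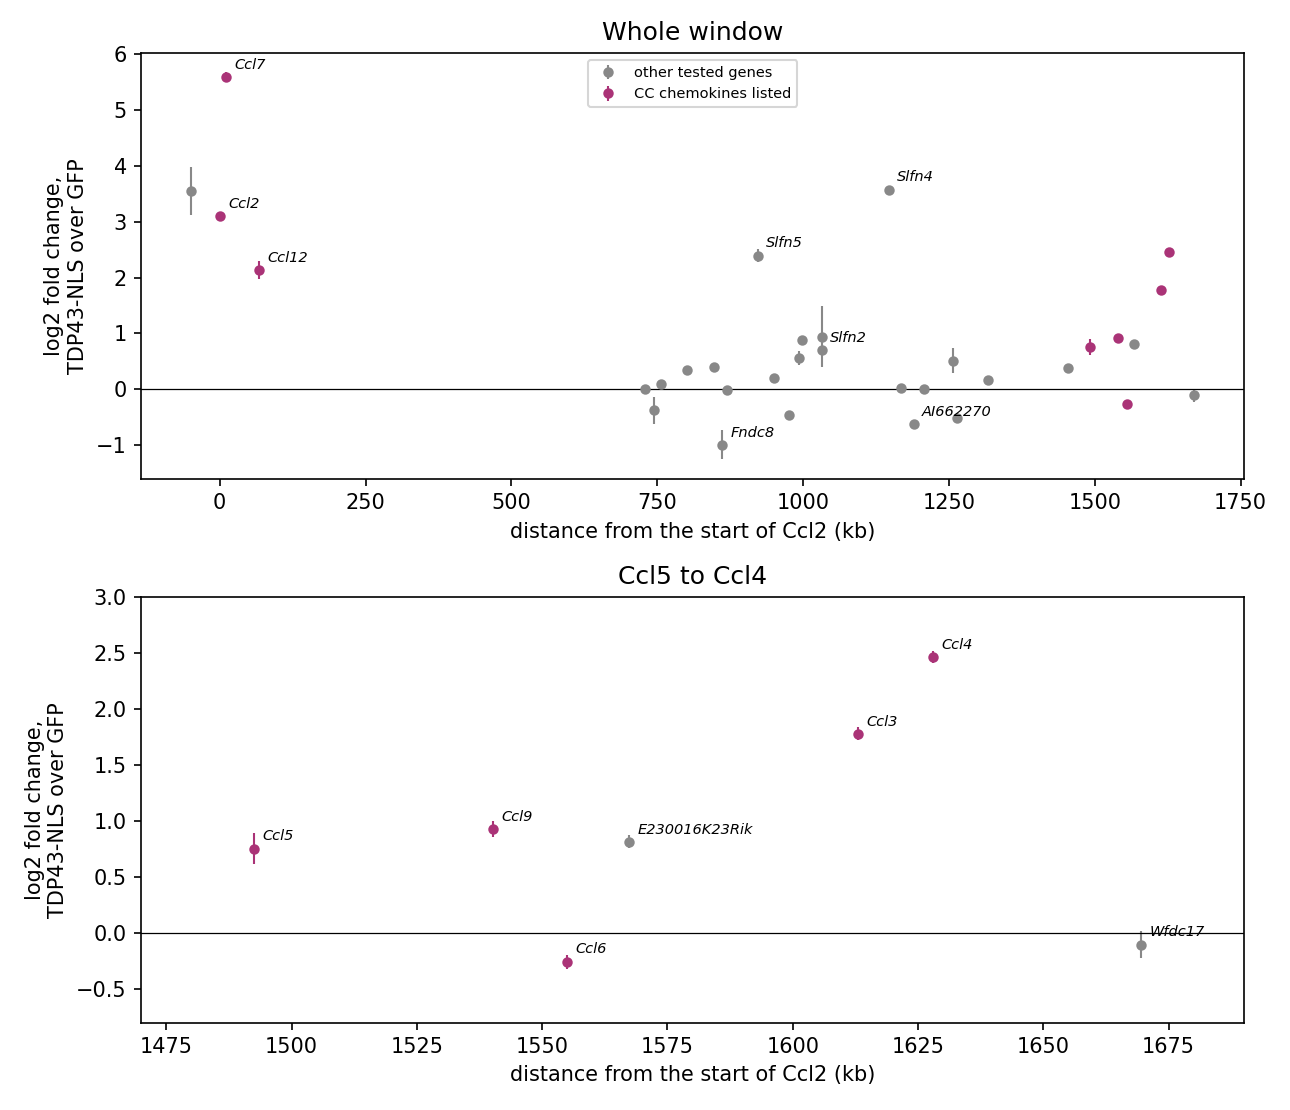
Log2 fold change (TDP43-NLS over GFP, bars are standard errors) of the CC chemokines (purple) and the other tested genes of the window (grey) against distance from the start of Ccl2 in kb, with the Ccl5 to Ccl4 run enlarged in the lower panel. Ccl7 is highest at 5.59, and Ccl6 at -0.26 sits between Ccl9 and Ccl3, which are above 0.

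Most other CC chemokines had few reads or none. Of 13 listed, 5 had no row under their names among genes with a read, 7 were too low to test and only Ccl25, a thymic and gut chemokine, was tested. Ccl25 was read 207, 252 and 247 times with GFP and 185, 246 and 256 times with TDP43-NLS (14.1 ± 0.792 and 13.7 ± 1.14 CPM, SD over 3 libraries). The groups overlapped, and the log2 fold change of -0.04 had a standard error of 0.09 (adjusted p = 0.709 in edgeR). Ccl1 had 1 read in the GFP libraries and 12 in the others (ratio 12, interval 1.78 to 513). Ccl24 had 12 and 14 reads (ratio 1.17, interval 0.501 to 2.76) and Ccl22 had 6 and 4 (ratio 0.666, interval 0.138 to 2.81).

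Of the receptors, Ccr1 rose and Ccr2, a receptor of the monocyte chemoattractants, was barely read. Of 15 listed receptors, 10 had a read and 3 were tested, of which 2 rose and 1 did not pass. The same test called 29.3% of all tested genes higher and 28.2% lower. Ccr1, a receptor for Ccl3, Ccl6 and Ccl9 among others, was read 27, 31 and 35 times with GFP and 194, 222 and 239 times with TDP43-NLS. It rose without overlap from 1.86 ± 0.130 to 13.1 ± 0.645 CPM (SD over 3 libraries), by 2.81 ± 0.12 on the log2 scale (SE; edgeR adjusted p = 5.69e-10).

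Ccr2, a receptor for Ccl2, Ccl7 and Ccl12, had 10 reads with GFP and 6 with TDP43-NLS in total (ratio 0.60, interval 0.179 to 1.82). Ccrl2, which binds chemerin and does not signal, was at 4.06 ± 0.479 and 3.91 ± 0.488 CPM (SD over 3 libraries), with a log2 fold change of -0.06 (edgeR adjusted p = 0.769). Ccr10 had 2 and 23 reads, a ratio of 11.5 (interval 2.84 to 100.6). The intervals of Ccr4 (6 and 13 reads, 0.768 to 6.95) and of the decoy receptors Ackr2 (8 and 12 reads, 0.564 to 4.23) and Ackr4 (10 and 14 reads, 0.578 to 3.52) all included a ratio of 1. Differences in Ccr2, Ccr4, Ackr2 and Ackr4 were not detectable at this depth.

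Downstream of the receptors, 15 of 24 tested signalling genes rose, 7 fell and 2 did not pass, with a median log2 fold change of 0.21. Beside this, 57.5% of all tested genes were called. Vav1, an exchange factor for Rac, rose by 0.87 and Ptk2b, the kinase Pyk2, by 0.79 on the log2 scale. The phospholipase Plcb3 rose by 0.69. Rgs2, which shuts off G-protein signals, fell by 1.51, the arrestin Arrb1 fell by 0.56 and Gnai2, an inhibitory G-protein subunit, fell by 0.49. Adjusted p-values of these 6 genes ran from 5.98e-11 to 3.09e-07 in edgeR. The other arrestin listed, Arrb2, rose by 0.39, from 251 to 329 CPM, while Arrb1 went from 158 to 107 CPM. Gnai3, the other inhibitory subunit listed, rose by 0.20. Arrb2 and Gnai3 (edgeR adjusted p = 3.2e-06 and 0.00205) were named after their values were seen. Against a log2 fold change of 0.5, 4 of the 24 were called, and Arrb1 and Gnai2 were not (adjusted p = 0.173 and 1). That threshold was passed by 14.9% of all tested genes.

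The pathways known to switch on these chemokines were followed in 26 cytokines, receptors, adaptors, kinases, inhibitors and transcription factors. Of these, 19 rose, 1 fell and 6 did not pass, with a median log2 fold change of 0.44. Among all tested genes, 57.5% were called. Nfkbiz, a nuclear co-activator of NF-kB, rose from 10.9 ± 0.584 to 100.9 ± 2.55 CPM and Tnf from 31.5 ± 4.30 to 264 ± 5.27 CPM (SD, n = 3 each). On the log2 scale Irf7 rose by 1.45, Nfkbia, the feedback inhibitor of NF-kB, by 1.41 and Cd14, a co-receptor for lipopolysaccharide, by 1.21. Fosl1, a subunit of AP-1, rose by 2.16. Rela, the main activating subunit of NF-kB, stood at 78.0 ± 6.68 and 77.5 ± 3.40 CPM (log2 fold change -0.01, edgeR adjusted p = 0.906) and was named after its value was seen. The adaptor Myd88, also named after its value was seen, fell by 0.60 (edgeR adjusted p = 8.77e-08). Against a log2 fold change of 0.5, 9 of the 26 were called, beside 14.9% of all tested genes.

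Of 12 tested regulators of mRNA decay, 2 rose, 4 fell and 6 did not pass, with a median log2 fold change of -0.06. Such calls covered 57.5% of all tested genes. Zc3h12a, the endonuclease Regnase-1 that cuts inflammatory mRNAs, rose from 8.05 ± 0.585 to 61.0 ± 2.69 CPM (SD over 3 libraries), with a log2 fold change of 2.92 ± 0.07 (SE; edgeR adjusted p = 2.93e-12). Zfp36, or tristetraprolin, which removes mRNAs with AU-rich elements, rose by 0.59 (adjusted p = 3.72e-05). The 4 decreases were small: Rc3h2 fell by 0.21, Tia1 by 0.21, Tial1 by 0.16 and Hnrnpd by 0.14. Leaving out GFP replicate 1 or TDP43-NLS replicate 1 ended the calls of Tia1, Tial1 and Hnrnpd, and left 3 called genes of the 12. Leaving out GFP replicate 3 or TDP43-NLS replicate 2 ended those of Tia1 and Hnrnpd, and leaving out TDP43-NLS replicate 3 that of Hnrnpd. DESeq2 called 4 of the 12, without Tia1 (adjusted p = 0.131) and Hnrnpd (adjusted p = 0.0656), and Tia1 was also not called from filtered FPKM. Against a log2 fold change of 0.5, which 14.9% of all tested genes passed, Zc3h12a alone was called.

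**Figure D4:**
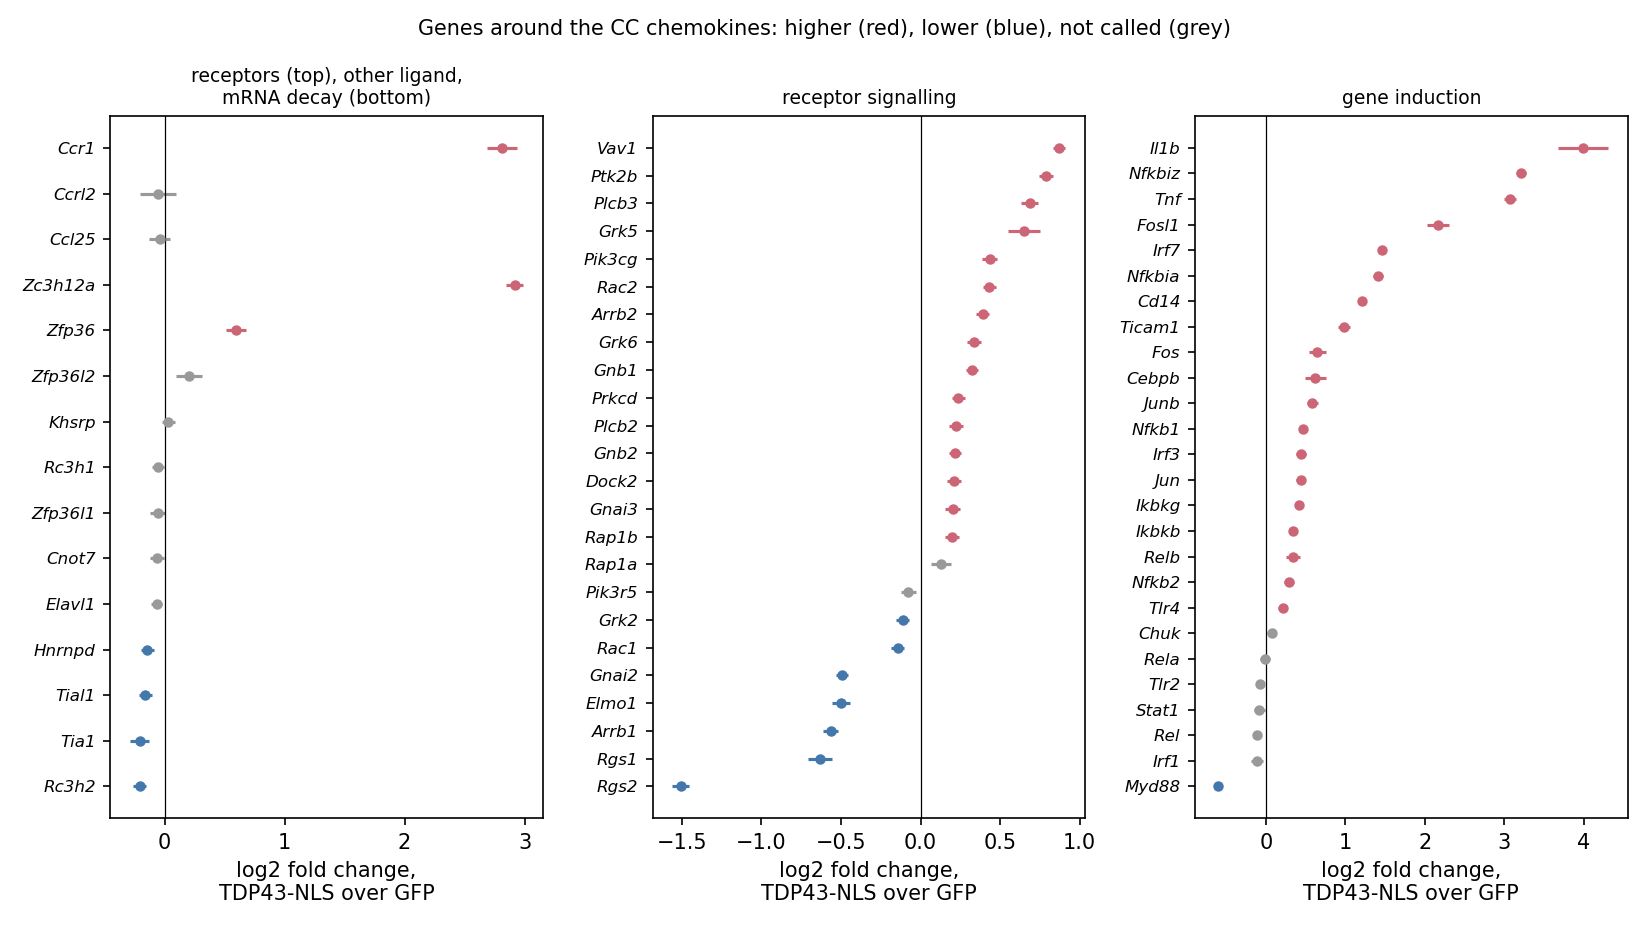
Log2 fold change (TDP43-NLS over GFP, bars are standard errors) of Ccr1, Ccrl2, the other tested CC ligand and mRNA decay regulators. Receptor signalling genes and genes of the inducing pathways follow. Points are red where called higher, blue where called lower and grey where not called. Ccr1, Zc3h12a, Il1b, Nfkbiz and Tnf lie furthest to the right, and Rgs2 at -1.51 furthest to the left.

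The genes whose profiles lay closest to a member were sought over the 6 libraries, as the smallest Euclidean distance between log2 CPM values centred on each gene's mean. For Ccl2 these were Irak3 (distance 0.0879) and Cd52 (0.141), and for Ccl7 they were Ehd2 (0.373) and Lcn2 (0.422). Mcemp1 (0.144) and Met (0.181) came closest to Ccl12, Spp1 (0.144) and Pcdh7 (0.150) to Ccl3, and Sema3g (0.194) and Aox2 (0.220) to Ccl4. For Ccl5 they were Wdr45 (0.185) and Capns2 (0.188), for Ccl9 Marcksl1 (0.124) and Dap (0.129), and for Ccl6 Gm13238 (0.0320) and Map3k10 (0.0635). None of these 16 genes lies on chromosome 11. With 2 groups of 3 libraries, such likeness mostly reflects a like fold change. Lowest in the GFP libraries were Sema3g (means of 0.221 CPM with GFP and 1.76 with TDP43-NLS) and Capns2 (0.363 and 0.738 CPM). Their log2 fold changes, 2.96 and 1.02, were less like those of Ccl4 (2.46) and Ccl5 (0.75), and rest on few reads.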

How the data were processed

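Poly(A) RNA libraries were analysed from the deposited counts, whole reads per gene for 55359 genes. FPKM were the authors' deposited values for the 25032 genes with a read, and gave levels per length and positions. The build was GRCm39 and the tools included Bowtie2 2.2.3, HTSeq 0.6.0 and HISAT2 2.1.0, in roles not given, per the submitters' processing notes. Genes passed edgeR's filterByExpr (10 reads, 15 in total), leaving 13199. Libraries were scaled by TMM and tested two-sided by edgeR 4.0.16 in R 4.3.3 with the group as the only term. A standard error is the log2 fold change over the root of F. DESeq2 1.42.0 and limma 3.58.1 on log2(FPKM + 1) were alternatives.

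The members and lists were chosen with earlier results of these data known. Named were every member with the 2 genes most like it, up to 6 called genes per list by adjusted p, and each receptor or other CC ligand with at least 10 reads. A few items under these rules are not reported here.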

Additional observations from a re-analysis of the deposited data

How the results depend on the processing

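All 8 members kept their direction under each of the 15 alternatives run, and all but Ccl5 and Ccl6, tested against a log2 fold change of 0.5, kept their calls. That threshold also left 4 called signalling genes, 9 genes of the inducing pathways, 1 decay regulator and 6 neighbours on chromosome 11. It was passed by 14.9% of all tested genes. Without the low-count filter, or with unfiltered log2(FPKM + 1) in limma, 1 other CC chemokine (Ccl1) was called in place of 0. With at least 1 CPM in 3 libraries, or filtered FPKM with either pseudocount, only 2 receptors were tested and 1 was called. DESeq2, edgeR without the low-count filter and unfiltered FPKM in limma each called 3 of 10 receptors, all higher. Unfiltered FPKM left 2 decay regulators, DESeq2 left 4, and leaving out 1 library gave 3 to 8 of them. From CPM in place of FPKM, the difference in share of the 8 genes' sum (TDP43-NLS minus GFP) was 14.7 percentage points for Ccl2, 13.4 for Ccl7, -2.23 for Ccl9, -9.76 for Ccl6 and -16.2 for Ccl3. The labels number the libraries 1 to 3 in each group, but same-numbered libraries were uncorrelated in their deviations (r from -0.0160 to 0.00189). With the replicate number as a block, 8 members were called, 7 higher and 1 lower, and the counts of the other lists were the same as without it. Depth limits the scarce ligands and receptors.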
